A study of Mus musculus with 12 samples.

Results

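The SLC25 family comprises the carrier proteins that move metabolites across the inner mitochondrial membrane, and its transcript levels were examined in heart ventricles and epididymal white adipose tissue (EWAT) of wild-type (WT) mice and of mice carrying a cardiac MED13 transgene (MED13cTg). MED13 is a subunit of the Mediator complex, which links transcription factors to RNA polymerase II. Carriers were taken as all entries whose symbol was Slc25a followed by a number in both expression tables, with 1 further carrier of that naming not included; family members filed under other symbols, such as the uncoupling proteins, are outside this rule. The rule found 43 carriers among 23042 entries, each with a single entry in either table. The animals were C57BL/6 male littermates aged 6 weeks, kept on normal chow and sampled while fed, late in the afternoon, and the genotypes differed by the transgene, whose promoter is not given in the sources used here. The 12 libraries formed 4 groups of 3, a WT and a MED13cTg group in each tissue. Expression was given as FPKM, fragment counts scaled by transcript length and by library size, so that levels can be compared between genes. Read depth cannot be recovered from these values, and the number of libraries limits the precision.

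Carriers of this family are small proteins of the inner membrane, most of which exchange one solute for another. The ADP/ATP carriers export ATP made in the matrix in return for ADP, and the phosphate carrier brings in the phosphate for its synthesis. The aspartate/glutamate and oxoglutarate/malate carriers form the malate-aspartate shuttle, which passes reducing equivalents from cytosolic NADH into the matrix and is of particular weight in heart muscle. The citrate carrier works in the opposite direction for lipid synthesis in fat, exporting citrate that yields cytosolic acetyl-CoA. Other members carry amino acids, glutathione, iron and cofactors such as coenzyme A, thiamine pyrophosphate and S-adenosylmethionine.

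The labels were first set beside the transcripts that define them. Med13 averaged 11.7 FPKM in WT ventricles and 216 FPKM in MED13cTg ventricles (18.4-fold; limma adjusted p = 0.000281), with no overlap, whereas in EWAT it averaged 10.1 and 9.85 FPKM. Summed FPKM of 10 ventricular cardiomyocyte genes lay between 67964 and 96761 in ventricle libraries and between 36.2 and 62.7 in EWAT libraries. Each WT EWAT library held epididymal as well as adipocyte transcripts: 23 epididymal genes summed to between 91938 and 119887 FPKM and 13 adipocyte genes to between 15572 and 36895 FPKM. MED13cTg EWAT replicates 1 and 2 stood apart from the other EWAT libraries. In replicate 1, the epididymal sum was 14800 FPKM, the adipocyte sum was 1638 FPKM, and 13 testis germ cell genes summed to 18912 FPKM against 279 to 348 in WT EWAT. In replicate 2, these sums were 286, 96984 and 31.4 FPKM. MED13cTg EWAT replicate 3, with 91919, 20060 and 431 FPKM, lay near the WT libraries. In such bulk samples, fewer cells of a type and less RNA per cell cannot be told apart.

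Mitochondrial ADP/ATP exchange rests on Slc25a4 (ANT1), the form typical of heart and muscle, Slc25a5 (ANT2), the widespread form, and Slc25a31 (ANT4), a form known from male germ cells. Their RefSeq promoters on GRCm38.p6, 250 bases up to the annotated start, are shown because these 3 genes serve the same exchange at very unlike levels. Slc25a34, an orphan carrier, is added because it had the widest ratio between WT ventricles and WT EWAT. Capitals mark matches to the motifs searched, on either strand. Slc25a4 lies at chr8:46211063-46211312 on the minus strand, Slc25a5 at chrX:36795347-36795596 on the plus strand, Slc25a31 at chr3:40708621-40708870 on the plus strand, and Slc25a34 at chr4:141623835-141624084 on the minus strand.
Slc25a4: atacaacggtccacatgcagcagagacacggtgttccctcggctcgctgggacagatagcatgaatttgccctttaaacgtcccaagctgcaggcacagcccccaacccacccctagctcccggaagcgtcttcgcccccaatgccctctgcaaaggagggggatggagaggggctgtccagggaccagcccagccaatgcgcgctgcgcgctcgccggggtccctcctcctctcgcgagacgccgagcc
Slc25a5: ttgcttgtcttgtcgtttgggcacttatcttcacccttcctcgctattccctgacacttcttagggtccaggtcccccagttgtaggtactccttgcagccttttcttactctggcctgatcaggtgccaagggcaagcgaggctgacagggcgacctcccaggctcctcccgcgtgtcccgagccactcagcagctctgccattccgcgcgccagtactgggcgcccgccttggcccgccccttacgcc
Slc25a31: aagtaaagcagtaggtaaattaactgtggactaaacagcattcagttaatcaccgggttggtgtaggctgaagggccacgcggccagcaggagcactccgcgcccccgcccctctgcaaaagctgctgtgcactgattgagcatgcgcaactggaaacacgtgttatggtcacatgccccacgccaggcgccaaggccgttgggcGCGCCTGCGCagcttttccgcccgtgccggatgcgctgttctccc
Slc25a34: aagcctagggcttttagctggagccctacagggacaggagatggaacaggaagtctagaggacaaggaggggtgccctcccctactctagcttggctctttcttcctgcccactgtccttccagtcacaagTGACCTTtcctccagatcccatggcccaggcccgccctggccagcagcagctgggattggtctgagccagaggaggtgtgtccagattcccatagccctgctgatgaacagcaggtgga

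The capitals in Slc25a31 are a match to the palindromic motif of nuclear respiratory factor 1 (NRF-1), and those in Slc25a34 a match to AAGGTCA, the extended half-site of estrogen-related receptors. Of 32851 promoters of that length, 3.74% held the former and 4.08% the latter. The other motifs searched were the TATA box TATAAA, in 12.4% of all promoters, and the cAMP response element TGACGTCA, in 1.55%. None of these letters occurred in the Slc25a4 and Slc25a5 windows. Promoters were matched for 33 of the 43 carriers, 42 windows in all. The NRF-1 motif occurred for Slc25a3 and Slc25a31, AAGGTCA for Slc25a34, TATAAA for Slc25a18 and Slc25a21, and TGACGTCA for Slc25a25 and Slc25a36. In the mm9 tables the entries themselves span chr8:47292697-47325067 for Slc25a4, chrX:34335245-34338801 for Slc25a5, chr3:40512792-40530016 for Slc25a31 and chr4:141174739-141179749 for Slc25a34, and these coordinates are not those of the promoter build. A match is a run of letters and was not tested as a binding site.

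Carrier transcripts were far more abundant in WT ventricles than in WT EWAT, and a single gene made most of the difference. Summed over the 43 carriers, FPKM reached 13765 ± 1724 (SD, n = 3) in WT ventricles and 1605 ± 49.5 (SD, n = 3) in WT EWAT. Slc25a4 stood at 12387, 8802 and 9483 FPKM in the 3 WT ventricle libraries and at 284, 281 and 301 FPKM in the WT EWAT libraries. Every ventricle library thus lay far above every EWAT library, and the ratio of the means was 35.4. Slc25a4 alone held 73.9 ± 4.47% of summed carrier FPKM in WT ventricles and 18.0 ± 0.724% in WT EWAT. Slc25a5 differed little, with 354, 235 and 253 FPKM in WT ventricles and 214, 206 and 200 FPKM in WT EWAT, a ratio of 1.36. Slc25a31 was low in both, between 0.669 and 1.06 FPKM in WT ventricles and between 0.142 and 0.554 FPKM in WT EWAT. In total, the ADP/ATP carriers accounted for 76.0 ± 4.68% of the ventricular pool and 30.9 ± 1.24% of the EWAT pool.

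The order of the remaining carriers also differed between tissues. After Slc25a4, the WT ventricle means ran from the phosphate carrier Slc25a3 (1831 FPKM) through the oxoglutarate/malate carrier Slc25a11 (452) and Slc25a5 (281) to Slc25a34 (192). The libraries of these neighbours did not overlap. Slc25a5 and Slc25a34 were close, since the lowest Slc25a5 library (235 FPKM) exceeded the highest Slc25a34 library (228 FPKM) by less than the SD of either gene. In WT EWAT, Slc25a4 (289 FPKM), Slc25a3 (279) and Slc25a5 (207) were followed by the citrate carrier Slc25a1 (145), Slc25a11 (120) and Slc25a39 (107), a carrier needed for mitochondrial glutathione import. Slc25a4 and Slc25a3 overlapped there, as did Slc25a1 with Slc25a11 and Slc25a39. The 5 highest carriers held 94.2 ± 0.966% of the ventricular pool and 64.8% of the EWAT pool.

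**Figure D1:**
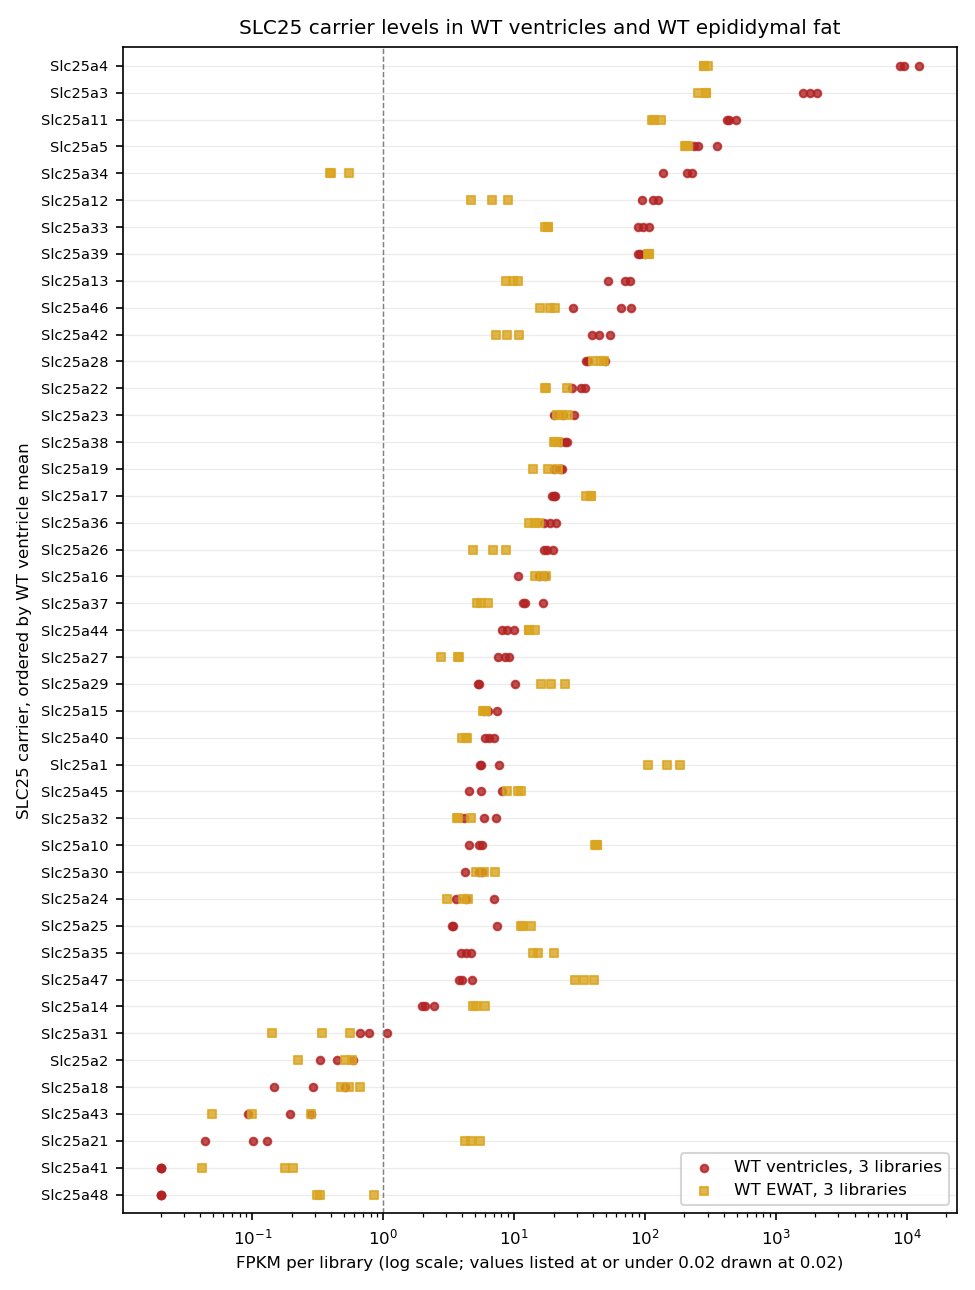
FPKM on a log scale (horizontal axis) of each of the 43 carriers (vertical axis, ordered by WT ventricle mean) in the 3 WT ventricle libraries (circles) and the 3 WT EWAT libraries (squares), with a dashed line at 1 FPKM and values listed at 0 drawn at the left edge. Slc25a4 and Slc25a34 lie far to the right in ventricles, while Slc25a1, Slc25a10, Slc25a47 and Slc25a21 lie to the right in EWAT.

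A carrier was called tissue-preferred where its WT means differed at least 4-fold and the libraries did not overlap. Because each tissue has its own FPKM table, these ratios are descriptions and were not tested. Of the 43 carriers, 37 could be compared, since they exceeded 1 FPKM in a tissue and were not listed at 0 in either. Of these, 7 were ventricle-preferred and 4 EWAT-preferred. Over all 14185 entries that could be compared, the shares were 9.08% and 15.1%. Of all 43, 20 carriers lay within 2-fold between the tissues. Slc25a41 and Slc25a48 were listed at 0 in all WT ventricle libraries.

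The ventricle-preferred carriers were 1 of the 3 ADP/ATP carriers (Slc25a4), the phosphate carrier Slc25a3, both aspartate/glutamate carriers (Slc25a12 and Slc25a13), 2 of the 8 carriers of cofactors and other nucleotides (Slc25a33 and Slc25a42) and the orphan Slc25a34. Slc25a34 stood at 138, 209 and 228 FPKM in WT ventricles and at 0.548, 0.402 and 0.392 FPKM in WT EWAT, a ratio of 428. Slc25a12, the calcium-regulated aspartate/glutamate carrier of excitable tissues, stood at 94.7, 116 and 126 FPKM against 8.98, 4.65 and 6.74 FPKM, a ratio of 16.5. Its paralog Slc25a13, known as the liver form of that carrier, stood at 51.9, 70.3 and 76.9 FPKM against 10.6, 8.71 and 9.86 FPKM, a ratio of 6.82. Both forms of the aspartate/glutamate carrier were thus higher in ventricles, with Slc25a12 above Slc25a13 in each WT ventricle library and below it in each WT EWAT library. In MED13cTg EWAT, Slc25a12 was also below Slc25a13 in replicates 1 and 3. In replicate 2, which had the fewest epididymal transcripts, Slc25a12 was above it, at 5.09 against 0.597 FPKM. The part of tissue composition in this order was not tested. Slc25a3 reached 1612, 1833 and 2046 FPKM in ventricles and 256, 290 and 290 FPKM in EWAT, a ratio of 6.57. Slc25a33, a pyrimidine nucleotide carrier, had a ratio of 5.41, and Slc25a42, a carrier of coenzyme A, had a ratio of 5.07. The Slc25a33 entry is joined with Tmem201, so its reads could belong to either gene. Slc25a42 was chosen for mention after its values were seen. Slc25a11 fell just outside the threshold with a ratio of 3.76, and Slc25a42 was the member just inside it.

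The EWAT-preferred carriers were 3 of the 4 di- and tricarboxylate carriers and the orphan Slc25a47. Slc25a1 stood at 106, 184 and 146 FPKM in WT EWAT and at 7.71, 5.53 and 5.54 FPKM in WT ventricles, a ratio of 23.2. Slc25a10, the dicarboxylate carrier, which is abundant in white fat, stood at 41.7, 42.7 and 42.6 FPKM against 5.40, 4.50 and 5.72 FPKM, a ratio of 8.13. Both were clearly higher in every EWAT library. Slc25a21, the oxodicarboxylate carrier, stood at 4.69, 4.21 and 5.49 FPKM against 0.101, 0.0433 and 0.129 FPKM, a ratio of 52.7 that rests on ventricle values near 0. Slc25a47, an orphan carrier best known from liver, stood at 28.9, 33.9 and 40.9 FPKM against 3.82, 4.01 and 4.79 FPKM, a ratio of 8.22. Slc25a35, with a ratio of 3.81, fell just outside the threshold. Taking the MED13cTg libraries in place of WT kept 6 of the 7 ventricle-preferred and 3 of the 4 EWAT-preferred carriers.

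These pairs of carriers separated in the EWAT library with the fewest epididymal transcripts. In MED13cTg EWAT replicate 2, Slc25a1 was 362 FPKM and Slc25a10 was 93.2 FPKM, both above every WT library, while Slc25a21 was 0.392 FPKM and Slc25a47 was 2.41 FPKM, both below every WT library. The adipocyte sum in that library was 96984 FPKM and the epididymal sum 286 FPKM. In MED13cTg EWAT replicate 1, the epididymal sum was 14800 FPKM, the adipocyte sum 1638 FPKM and the testis germ cell sum 18912 FPKM. There, Slc25a1, Slc25a10 and Slc25a47 were 46.8, 15.4 and 7.87 FPKM, below every WT library, and Slc25a21 was 4.82 FPKM, within the WT range. The part of tissue composition in the EWAT preference was not tested.

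The substrate groups made up unlike shares of the carrier pool. In WT ventricles, phosphate held 13.5 ± 2.80%, di- and tricarboxylates 3.40 ± 0.465% and amino acids with glutathione 2.63 ± 0.439%. In WT EWAT these shares were 17.3 ± 0.717%, 19.4 ± 2.13% and 13 ± 1.2%. The 8 carriers of cofactors and other nucleotides held 1.78 ± 0.289% of the ventricular pool and 7.70 ± 0.277% of the EWAT pool, and the iron carriers Slc25a28 and Slc25a37 (mitoferrins) held 0.389 ± 0.0325% and 3.14 ± 0.324%. Since Slc25a4 fills most of the ventricular pool, the share of every other carrier there depends on it.

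**Figure D2:**
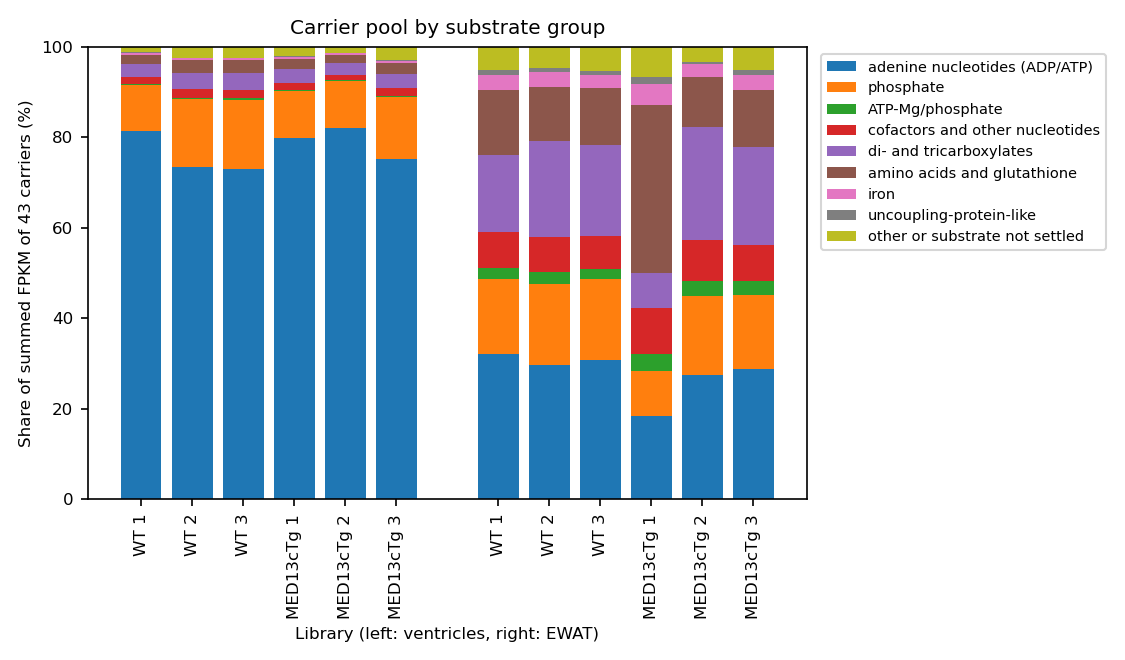
Share of the summed FPKM of 43 carriers (vertical axis, %) held by each of 9 substrate groups in every library (horizontal axis, ventricles left and EWAT right). ADP/ATP carriers fill 73.0 to 82.2% of each ventricle bar, and in MED13cTg EWAT replicate 1 the amino acid and glutathione group reaches 37.2%.

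Whether the cardiac MED13 transgene altered the carriers was examined first in ventricles, where it is expressed. No carrier passed the test. Of the 43 carriers, 36 averaged 1 FPKM or more across the 6 ventricle libraries and were fitted with limma on log2(FPKM + 1), with Benjamini-Hochberg adjustment over all 12589 entries tested. The carriers' adjusted p-values lay between 0.966 and 1.00. In the same test, 3 entries were called higher (0.0238%) and 4 lower (0.0318%) among all entries, and leaving out 1 library at a time gave between 3 and 6 and between 0 and 4. At an unadjusted p under 0.05, 1 carrier was higher, Slc25a45, and 2 were lower, Slc25a13 and Slc25a33, beside 1.69% and 3.03% of all entries. The fitted log2 fold changes were below 0 for 19 carriers (53.3% of all entries) and above 0 for 17, with a median of -0.011 against -0.014 over all entries tested. They ranged from -0.44 to 0.54.

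For 5 carriers all MED13cTg ventricle libraries lay below all WT libraries, and for 2 all lay above. The shares over all entries were 5.85% and 3.46%. Without WT replicate 1, these counts were 9 and 5. The second count was 4 without WT replicate 3 and 5 without MED13cTg replicate 2, and quantile normalization left the first at 1. Smaller groups separate more easily, and the shares over all entries under these alternatives are not given here. Nothing is therefore read from the changes in these counts. The 5 lower carriers were Slc25a5, Slc25a11, Slc25a13, Slc25a33 and Slc25a39, and the 2 higher ones were Slc25a22 and Slc25a45. None of the 7 is a call.

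**Figure D3:**
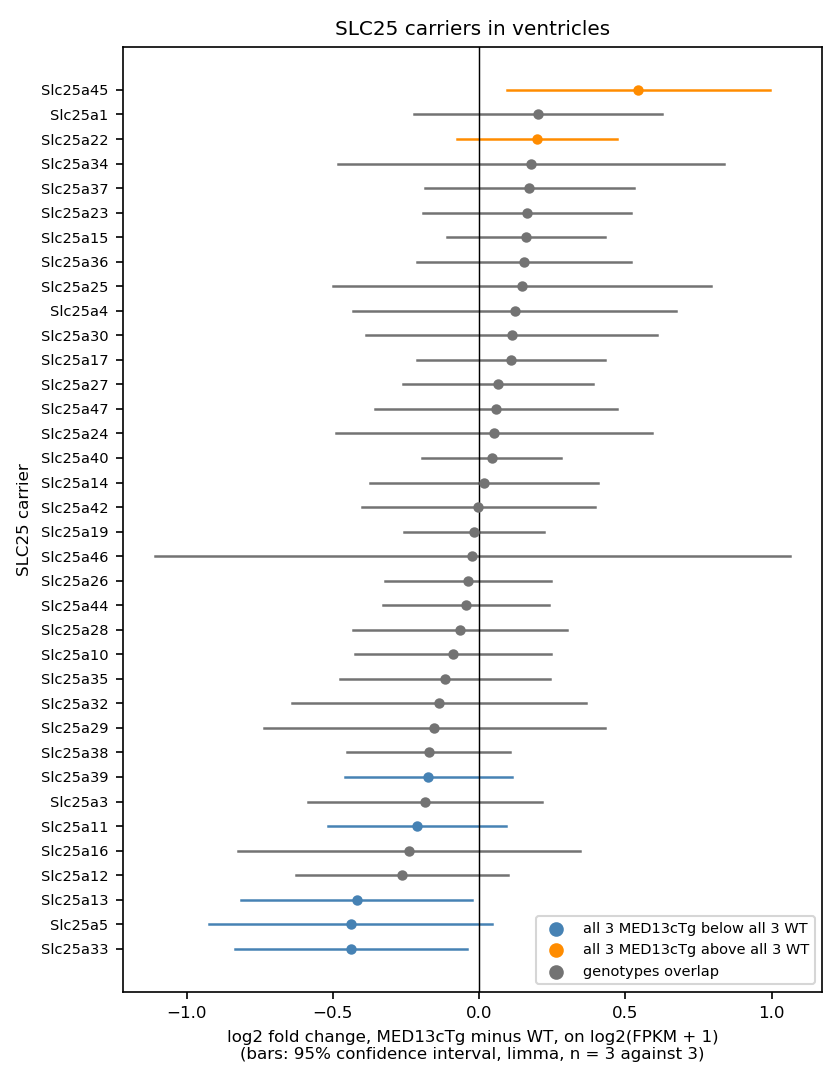
Fitted log2 fold change (horizontal axis, MED13cTg minus WT on log2(FPKM + 1)) with 95% confidence interval for the 36 carriers tested in ventricles, 3 libraries per genotype. Colours mark the 5 carriers with all MED13cTg libraries below all WT libraries and the 2 with all above; intervals of most carriers include 0.

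Among the ADP/ATP carriers, Slc25a4 and Slc25a5 had fitted differences of opposite sign. Slc25a4 stood at 10903, 13078 and 9340 FPKM in MED13cTg ventricles against 12387, 8802 and 9483 FPKM in WT, so the genotypes overlapped (log2 fold change 0.12, SE 0.23, 95% interval -0.43 to 0.67). Slc25a5 stood at 231, 215 and 170 FPKM against 354, 235 and 253 FPKM, with the MED13cTg libraries lowest (log2 fold change -0.44, SE 0.20, limma adjusted p = 0.966). Within a library, the ratio of Slc25a4 to Slc25a5 was 35.0, 37.4 and 37.6 in WT and 47.2, 60.7 and 55.0 in MED13cTg ventricles. Every MED13cTg ratio was above every WT ratio. The difference of the log2 ratios was 0.56, and an exact two-sided permutation test gave p = 0.1, the smallest value that the 20 arrangements of 3 against 3 allow; the ratio was chosen for testing after its values were seen. In EWAT the ratio lay between 1.27 and 1.5 in all 6 libraries (exact permutation p = 0.6). These paralogs are similar in sequence, and how reads common to both were divided is not given in the sources used here.

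The phosphate carrier and the malate-aspartate shuttle had lower means in MED13cTg ventricles, none past the test. Slc25a3 stood at 1423, 1667 and 1736 FPKM against 1612, 1833 and 2046 FPKM, and the genotypes overlapped. Slc25a11 stood at 400, 401 and 367 FPKM against 438, 424 and 494 FPKM, without overlap (log2 fold change -0.21, SE 0.13). Slc25a12 stood at 94.1, 82.2 and 102 FPKM against 94.7, 116 and 126 FPKM, with overlap (log2 fold change -0.26, SE 0.15). Slc25a13 stood at 50.4, 44.7 and 51.5 FPKM against 51.9, 70.3 and 76.9 FPKM (log2 fold change -0.42, SE 0.17). Its highest MED13cTg library was separated from the lowest WT library by less than the SD of either group. All 3 shuttle carriers had limma adjusted p-values of 0.966.

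Other carriers without overlap belonged to several substrate groups. Slc25a33 stood at 73.5, 57.7 and 84.6 FPKM in MED13cTg ventricles against 97.1, 106 and 87.6 FPKM in WT (log2 fold change -0.44, SE 0.17), an entry joined with Tmem201. Slc25a39 stood at 87.6, 85.5 and 74.1 FPKM against 99.6, 91.5 and 87.7 FPKM (log2 fold change -0.17, SE 0.12). Its MED13cTg and WT libraries almost met. Slc25a22, a mitochondrial glutamate carrier, stood at 35.1, 38.0 and 36.0 FPKM against 32.5, 27.9 and 34.5 FPKM (log2 fold change 0.20, SE 0.12). Slc25a45, an orphan carrier of low level, stood at 9.39, 9.44 and 8.34 FPKM against 8.08, 4.49 and 5.56 FPKM (log2 fold change 0.54, SE 0.19), the largest fitted difference of the 36. All 4 had limma adjusted p-values of 0.966.

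**Figure D4:**
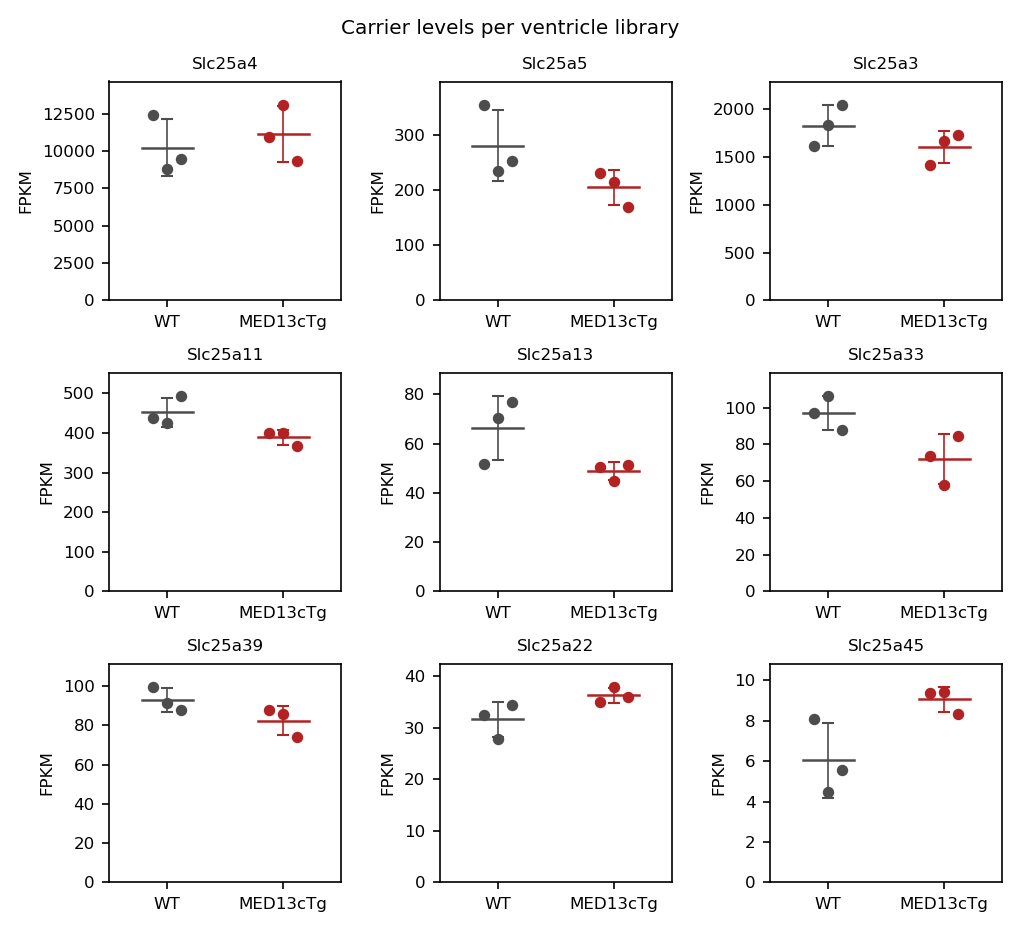
FPKM (vertical axes, from 0) of 9 carriers in each ventricle library by genotype; points are libraries, horizontal lines the means and bars the SD (n = 3 per genotype). Slc25a4 and Slc25a3 overlap between genotypes, whereas Slc25a5, Slc25a11, Slc25a13, Slc25a33 and Slc25a39 are lower and Slc25a22 and Slc25a45 higher in all MED13cTg libraries.

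By substrate group, 6 of the 9 amino acid and glutathione carriers tested and 6 of the 8 cofactor carriers had fitted values below 0, whereas all 3 ATP-Mg/phosphate carriers tested and all 3 uncoupling-protein-like carriers had values above 0. None was called. Slc25a34 and Slc25a46, a member located on the outer membrane, varied widely within a genotype. Slc25a34 stood at 203, 160 and 292 FPKM in MED13cTg ventricles against 138, 209 and 228 FPKM in WT. Slc25a46, named after its values were seen, stood at 71.0, 30.4 and 63.2 FPKM against 28.0, 65.6 and 77.9 FPKM, and its SE of 0.46 was the highest of the 36 against a median SE of 0.16. The low libraries of Slc25a46 were 1 WT and 1 MED13cTg library.

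The ventricle libraries were cut into 2 clusters, a number fixed by the method, and all pairs correlated at 0.944 to 0.969 (Spearman). These clusters crossed the genotypes. The first held WT replicate 1 and MED13cTg replicates 1 and 2, and the second WT replicates 2 and 3 and MED13cTg replicate 3. Within these clusters, Slc25a5 was lower in MED13cTg by 0.67 and 0.52 on the log2(FPKM + 1) scale in the first and second, with an adjusted p of 0.293 when limma was given the cluster as a covariate. The log2 differences of Slc25a13 were -0.13 and -0.51, those of Slc25a33 were -0.57 and -0.19, and those of Slc25a45 were 0.20 and 0.64. For Slc25a4 they were -0.053 and 0.032. Slc25a34, which overlapped in the pooled comparison, had differences of 0.38 and 0.42. Each cluster holds 3 libraries, with a single library of one genotype, so these values have no test of their own. Summed FPKM of 6 atrial genes was 747, 496 and 452 in WT and 998, 2450 and 1165 in MED13cTg ventricles, the sum above WT in all 3. By gene, 2, 6 and 1 of the 6 were above every WT library in MED13cTg replicates 1, 2 and 3, and 1, 0 and 1 were below. The sum of 8 skeletal muscle genes was 2686 to 3051 FPKM against 3259 to 3587 FPKM, with 6, 4 and 4 of the 8 below every WT library and 0, 4 and 0 above. The part of these sums in the carrier values was not tested.

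In EWAT, where Med13 did not exceed WT, no carrier passed the test either, and the spread was wider. Of the 43 carriers, 40 were tested among 14967 entries, and adjusted p-values lay between 0.738 and 0.991. The fit called 0 entries higher and 2 lower (0.0134%) among all entries, and 0 lower with the replicate number as a block. At an unadjusted p under 0.05, 0 carriers were higher and 1 was lower, Slc25a29, a basic amino acid carrier, beside 0.14% and 1.11% of all entries. Fitted values were below 0 for 19 carriers (49.3% of all entries) and above 0 for 21, with a median of 0.019 against 0.012 over all entries. The median SE was 0.42, against 0.16 in ventricles. Slc25a2, Slc25a18, Slc25a31 and Slc25a41 reached the minimum of 1 FPKM through MED13cTg replicate 1 alone. Their fitted values (1.47, 0.72, 1.67 and 1.26) are among the 21 above 0. Nothing is therefore read from the split of signs or from the carrier median.

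All MED13cTg EWAT libraries lay below all WT libraries for 1 carrier, Slc25a11, and above for 0, beside 7.80% and 4.88% of all entries. Slc25a11 stood at 35.1, 58.4 and 107 FPKM against 112, 116 and 133 FPKM (log2 fold change -0.98, SE 0.43, limma adjusted p = 0.738). Its replicate 3 was just under the lowest WT library. Leaving out each of the 6 libraries moved these counts to between 1 and 7 below and between 1 and 8 above. The highest were 7 below without MED13cTg replicate 2 and 8 above without MED13cTg replicate 3, which leaves only replicates 1 and 2. Smaller groups separate more easily, and the shares over all entries at these settings are not given here. Nothing is therefore read from these changes. With MED13cTg replicates 1 and 2 both left out, 12 carriers lay below and 4 above the WT libraries in replicate 3, beside 23.3% and 20.9% of all entries, and 0 differed by 2-fold or more in either direction, beside 0.381% above and 0.254% below. That comparison rests on a single MED13cTg library, and the 12 include Slc25a18, which entered the test through replicate 1 alone.

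MED13cTg EWAT replicate 1 held carriers that were near 0 elsewhere. Slc25a31 was 45.2 FPKM there and between 0.142 and 0.554 FPKM in the other 5 EWAT libraries. Slc25a2, an ornithine carrier, was 37.7 FPKM, Slc25a41, an ATP-Mg/phosphate carrier, was 16.4 FPKM, and Slc25a18, a glutamate carrier, was 8.92 FPKM; in the 3 WT libraries they lay at or below 0.664 FPKM. The Slc25a2 entry spans 911589 bases and overlaps 24 other entries, so its reads are uncertain. Slc25a39 was 397 FPKM against 107, 105 and 108 FPKM in WT, and made up 29.6% of the carrier pool of that library. Slc25a33 was 56.9 FPKM against 18.3, 18.2 and 17.2 FPKM in WT. In the same library all 13 testis germ cell genes were above every WT library, and all 13 adipocyte genes were below. The part of these cells in the carrier values was not tested. Slc25a2, Slc25a18, Slc25a29 and Slc25a41 were named after their values were seen.

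Of the ADP/ATP and phosphate carriers, Slc25a4, Slc25a5 and Slc25a3 were low in that library, whereas Slc25a31 was high, as given above. Slc25a4 was 112 FPKM against 284, 281 and 301 FPKM in WT, Slc25a5 was 88.2 FPKM against 214, 206 and 200 FPKM, and Slc25a3 was 136 FPKM against 256, 290 and 290 FPKM. In that library 17 carriers lay above and 19 below all WT libraries, beside 44.1% and 48.2% of all entries. Of these, 8 carriers were at least 2-fold above and 13 at least 2-fold below the WT mean and outside the WT range there, beside 27.9% and 24.6% of all entries. The 17 and the 8 both include Slc25a2, Slc25a18, Slc25a31 and Slc25a41, which entered the test through this library alone, so nothing is read from either count.

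MED13cTg EWAT replicate 2 moved the other way for many carriers. There, 23 carriers lay above and 13 below all WT libraries, beside 38.2% and 45.7% of all entries. Of these, 6 carriers were at least 2-fold above and 5 at least 2-fold below, beside 10.2% and 14.9% of all entries. The 13 include Slc25a2, Slc25a18 and Slc25a41, which entered the test through replicate 1 alone, so nothing is read from that count. Slc25a1 (362 FPKM), Slc25a10 (93.2 FPKM) and Slc25a22 (52.8 FPKM against 25.2, 17.2 and 17.6 FPKM in WT) were above the WT libraries. Slc25a13 was 0.597 FPKM against 10.6, 8.71 and 9.86 FPKM in WT, and Slc25a47 and Slc25a21 were likewise low. All 13 adipocyte genes were above every WT library and all 23 epididymal genes below. For Slc25a1, replicates 1, 2 and 3 of MED13cTg thus stood at 46.8, 362 and 175 FPKM, on both sides of the WT range of 106 to 184 FPKM.

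**Figure D5:**
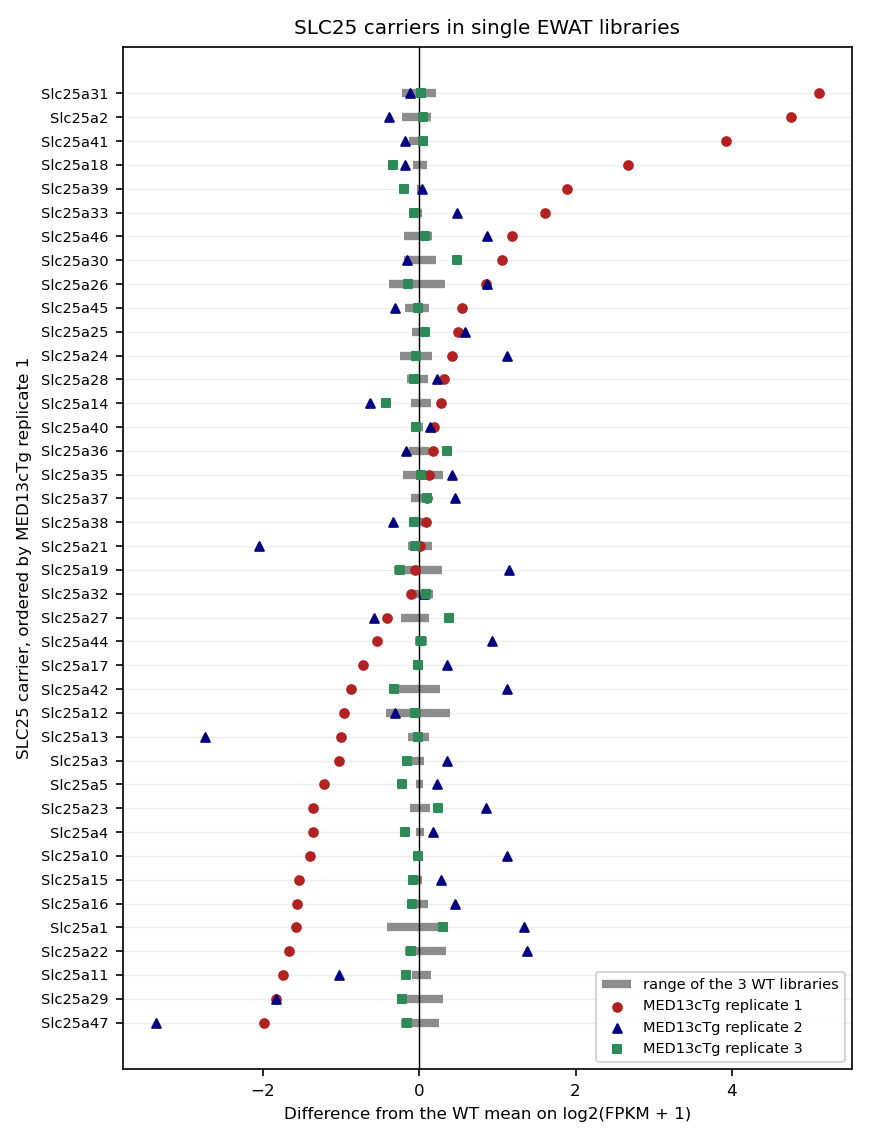
Difference of each MED13cTg EWAT library from the WT mean (horizontal axis, log2(FPKM + 1)) for the 40 carriers tested, with grey bars for the range of the 3 WT libraries. Replicate 1 ranges from Slc25a47 at -1.99 to Slc25a31 at 5.11, replicate 2 reaches -3.37 for Slc25a47, and replicate 3 stays near the WT range.

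Genes that serve the carriers were counted in the same fits. In the list of carrier import, the TOM and TIM22 machinery that inserts carriers into the inner membrane, 17 were tested and 0 were called by limma in either tissue (unadjusted p under 0.05, 1 lower in ventricles and 0 in EWAT). The median log2 fold changes were -0.021 in ventricles and -0.20 in EWAT, beside -0.014 and 0.012 over all entries. The EWAT medians of these lists include MED13cTg replicates 1 and 2, which stood apart, and the part of tissue composition in them was not tested. Tomm40, the import pore, stood at 50.7, 54.7 and 51.7 FPKM in MED13cTg ventricles against 68.4, 58.8 and 59.0 FPKM in WT, without overlap. Agk, a subunit of the TIM22 complex, stood at 9.18, 9.17 and 8.6 FPKM against 11.0, 10.2 and 12.1 FPKM, also without overlap. These were the 2 of the 17 for which all MED13cTg ventricle libraries lay below WT, beside 5.85% of all entries, and 0 lay above. In EWAT, Tomm6 and Timm22 lay below WT in all MED13cTg libraries, 2 of 17 beside 7.80% of all entries. Agk lay above WT there, at 11.7, 12.1 and 8.06 FPKM against 7.47, 7.79 and 6.72 FPKM, opposite to its order in ventricles and 1 of 17 beside 4.88%. The list of other transport and related genes had 18 tested, mostly of the inner membrane but with Mtch1 and Mtch2 of the outer membrane. Of these, 0 were called in either tissue, with medians of -0.060 and -0.23 beside the same -0.014 and 0.012 over all entries. In that list Mtch2 and Abcb8 lay below WT in all MED13cTg ventricle libraries, 2 of 18 beside 5.85% of all entries, while Ucp2, Mtch1 and Letm1 lay below WT in all MED13cTg EWAT libraries, 3 of 18 beside 7.80%. The uncoupling protein Ucp3 was even between genotypes in ventricles, at 66.5, 72.2 and 69.8 FPKM against 56.9, 67.8 and 79.7 FPKM. For the outer membrane channels Vdac1, Vdac2 and Vdac3, 0 of 3 were called in either tissue. The last 2 lists had 0 genes at an unadjusted p under 0.05.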

How the data were processed

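Per the labels, ventricles and epididymal fat were taken from male littermates and total RNA was sequenced. The authors made the FPKM values, 1 table per tissue, with TopHat and Cufflinks at default settings on mm9; versions are not given in the sources used here. A value column without a name in the EWAT table (1 column) was not used. Members and gene lists were chosen with earlier results of these data known. In each tissue, entries that averaged 1 FPKM or more across its 6 libraries were fitted with limma 3.58.1 (R 4.3.3) on log2(FPKM + 1), using lmFit and trended eBayes, threshold 0.05 after Benjamini-Hochberg adjustment over all entries, tested on simulated data. A log2 fold change on that scale understates the change of low genes. Nothing ties a library to a mouse beyond its number, so p-values measure the spread between these libraries. The deviations of same-numbered EWAT libraries correlated at 0.35, 0.30 and 0.14 for numbers 1, 2 and 3, and at up to 0.17 between other numbers. Because the value for number 3 was below that highest other value, these correlations do not settle whether equal numbers mark pairs. The fits given therefore have no replicate block unless stated. A fit that included this block called 0 carriers higher and 0 lower in EWAT. Named carriers were the ADP/ATP and phosphate carriers, the 5 highest in WT of each tissue, those without overlap or with extreme tissue ratios; others are named as chosen later. Promoter sequences are from RefSeq. From the list of other inner membrane transport genes, 1 gene is not reported here.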

Additional observations from a re-analysis of the deposited data

How the results depend on the processing

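No carrier was called under any alternative in either tissue; adjusted p-values of the named carriers ranged from 0.0816 to 1 in ventricles and from 0.125 to 1 in EWAT. Over all entries in ventricles (3 higher, 4 lower), omitting the filter gave 19 and 12, array weights 7 and 8, a minimum of 5 FPKM 1 lower and the replicate block 1 lower; same-numbered ventricle libraries correlated at 0.085, -0.19 and 0.14 and share only a number. In EWAT (0 and 2), entries called lower numbered 1 without the filter, 0 with array weights and 0 with the replicate block, which changed no other call. Leaving out 1 library gave 3 to 6 higher and 0 to 4 lower in ventricles, and 0 to 2 and 0 to 4 in EWAT. Ventricle carriers with all MED13cTg libraries below WT numbered 1 under quantile normalization and 5 to 9 with 1 library left out, and those above 2 to 5. In EWAT the ranges were 1 to 7 and 1 to 8. Smaller groups separate more easily, and the matching shares over all entries are not given, so nothing is read from these ranges. The EWAT carrier median was 0.076 with median-of-ratios scaling, -0.068 with quantile normalization, 0.11 with array weights and -0.017 to 0.088 with 1 library left out. These medians include Slc25a2, Slc25a18, Slc25a31 and Slc25a41, which passed the minimum through MED13cTg EWAT replicate 1 alone. With MED13cTg EWAT replicate 3 alone, an alternative chosen after seeing the data, 4 carriers lay above and 12 below WT, 17 entries were called higher with a spread taken from the WT libraries alone, the carrier median was -0.045, and Slc25a33, Slc25a39 and Slc25a45 turned to -0.069, -0.20 and -0.013. Tissue-preferred carriers (7 and 4) numbered 13 and 8 at 2-fold and 2 and 28 as shares of the pool, and 9 were EWAT-preferred by percentile. Of the 7 ventricle-preferred carriers, only Slc25a4 and Slc25a34 stayed so as shares of the pool. By percentile, 5 of the 7 stayed so, without Slc25a3 and Slc25a4, whose mean WT percentiles were 98.1 or higher in both tissues. All 4 EWAT-preferred carriers stayed so under both. The sign of ventricular log2 fold changes turned with array weights for Slc25a10 (0.078), Slc25a34 (-0.0027) and Slc25a47 (-0.041), and with the library cluster for Slc25a4 (-0.011). In EWAT it turned with quantile normalization for Slc25a45 (-0.035) and with array weights for Slc25a10 (0.27) and Slc25a22 (0.39). With 1 library left out, log2 fold changes that turned ranged in ventricles from -0.0030 to 0.27 for Slc25a4, -0.055 to 0.38 for Slc25a34, -0.085 to 0.22 for Slc25a47 and -0.17 to 0.021 for Slc25a10. In EWAT they ranged from -0.64 to 0.82 for Slc25a1, -0.60 to 0.096 for Slc25a3, -0.72 to 0.00042 for Slc25a5, -0.71 to 0.55 for Slc25a10, -0.89 to 0.64 for Slc25a22, -0.047 to 2.57 for Slc25a31, -0.083 to 0.96 for Slc25a39 and -0.16 to 0.27 for Slc25a45. The cause was not tested for any of these. Without counts, read depth is unknown, and 3 libraries per group limit what could be detected.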
